A study of Drosophila melanogaster with 2 samples.

Results

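The X chromosome held 291 of the 1949 reproducible Bigmax peaks of whole Drosophila melanogaster embryos, or 14.9% of them. They were chosen by their place on X alone, and the other 1658 peaks lay on the autosomal arms 2L, 2R, 3L, 3R and 4. A peak counted as a promoter peak when a protein-coding transcript began within 500 bp of its summit, which gave 165 promoter peaks and 126 other peaks on X, against 1124 and 534 on the autosomes. The data came from chromatin immunoprecipitation followed by sequencing (ChIP-seq) in 1 group of 2 libraries, replicates 3 and 4, from mixed-sex embryos aged 0 to 24 h of a transgenic strain that stably expresses Bigmax with GFP at its C terminus, with chromatin sonicated to 200 to 800 bp. No wild-type or other strain was compared. The antibody label names bigmax, while the description text of both libraries names an input control. The deposited file notes give the lists as peaks called against a separate control, and they were read as Bigmax peaks. The embryos are a mixture of all tissues and of both sexes, and males carry a single X, so that the number of X copies and binding per copy cannot be told apart in the signal.

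Bigmax, the fly relative of mammalian Mlx, joins Mondo, the relative of ChREBP and MondoA, in a dimer of helix-loop-helix proteins that binds E-boxes such as CACGTG in the response to sugar. Growth and metabolic genes, among them those for ribosomal proteins, are textbook targets of the wider Max and Mlx network. The X chromosome of Drosophila is known for dosage compensation, in which a complex containing the roX RNAs and the acetyltransferase Mof raises transcription of the X in males after binding elements rich in GA repeats.

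Many of the strongest X summits lay near the 6-base word AGGTTA, a word picked from earlier results on these data. It is shown here in capitals because it marked the strong X peaks far more often than CACGTG did, in promoters and outside them. Each sequence is RefSeq genome sequence of Release 6, the same as dm6, read 5′ to 3′ on the strand that spells AGGTTA, with 12 bases either side of the copy nearest the summit.
Top1 promoter peak, chrX:15323552-15323581, plus strand: aatgcgcatttgAGGTTAggttcgaacgcg
CG1354 promoter peak, chrX:9778834-9778863, minus strand: ggatgggagttaAGGTTAgttattgccaaa
anox promoter peak, chrX:21319282-21319311, minus strand: gctgcctctttgAGGTTAtgtctctctgtc
mRpS30 promoter peak, chrX:15786079-15786108, minus strand: ttgacaataactAGGTTAtgtcattgctgc
Cyp1 intronic peak, chrX:16319441-16319470, plus strand: gtgaccgcttagAGGTTAtgttcgtgtatt
Gga upstream peak, chrX:9599400-9599429, minus strand: gcttgccctttgAGGTTAtgtccgctgatt
Spt6 intronic peak, chrX:6268369-6268398, plus strand: tttacaactttgAGGTTAggtcttgtgttt
Naa15-16 intronic peak, chrX:19480927-19480956, minus strand: gcgcgaattttgAGGTTAtgagaccagcgg
In several of these the word has TG on its left, TG on its right, or both. At the 77 X summits with the word, TG stood on both sides in 17, or 22.1% (95% Wilson interval 14.3% to 32.5%). Among the 159 weak X peaks with the word, which share no base with a reproducible peak, 3 had TG on both sides, or 1.89% (0.644% to 5.40%). At the 308 reproducible autosomal summits with the word it was 31, or 10.1% (7.18% to 13.9%). The flanks were chosen for counting after these sequences were seen. Outside promoters 14 of 44 X copies had both (31.8%), and in promoters 3 of 33 (9.09%). Autosomal copies were not split in this way. The X and autosomal shares therefore pool different mixtures of promoter and other peaks. The median distance of the nearest copy from the summit was 16.5 bp at reproducible X peaks and 23.5 bp at weak X peaks.

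X carried fewer promoter peaks for its number of starts than the autosomes. There were 50.4 promoter peaks per 1000 distinct protein-coding starts on X, which has 3275 starts, and 70.4 on the autosomes, which have 15977. The ratio of X to autosomes was 0.716, with an exact 95% interval for counting error of 0.605 to 0.844. The autosomal arms had 69.8 on 2L, 69.3 on 2R, 65.2 on 3L, 75.9 on 3R and 70.4 on chromosome 4, and X lay below all 5. Chromosome 4 rested on 10 promoter peaks and its own interval, 33.8 to 130, reached below the X value. All intervals given here cover counting only: neighbouring peaks of 1 locus are not independent, the depth of sequencing is unknown because the lists hold no read counts, and no test across samples exists between chromosomes of the same libraries.

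The promoter shortfall also appeared gene by gene. On X, 189 of 2196 protein-coding genes (8.61%, Wilson interval 7.50% to 9.85%) had a promoter peak, against 1368 of 11749 (11.6%, 11.1% to 12.2%) on the autosomes. Over X and autosomes together it was 11.2% of 13945 genes. The difference was -3.04 percentage points (Newcombe interval -4.29 to -1.67). On the autosomal arms the share was 10% to 12.4%. Taken from each replicate's own 1949 strongest peaks, the ratio of promoter peaks per start was 0.759 in replicate 3 and 0.731 in replicate 4.

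Outside promoters no such shortfall was seen. Other peaks numbered 6.01 per Mb of sequence outside promoter windows on X and 5.47 on the autosomes, a ratio of 1.10 (0.898 to 1.34). The arm values were 5.80 on 2L, 5.69 on 2R, 5.14 on 3L, 5.45 on 3R and 3.24 on chromosome 4, which had 4 such peaks. Promoter peaks therefore made up 56.7% of the peaks on X (50.96% to 62.3%) and 67.8% on the autosomes (65.5% to 70%), a difference of -11.1 percentage points (-17.2 to -5.07). Among the autosomal arms that share was 65.3% to 71.4%.

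**Figure D1:**
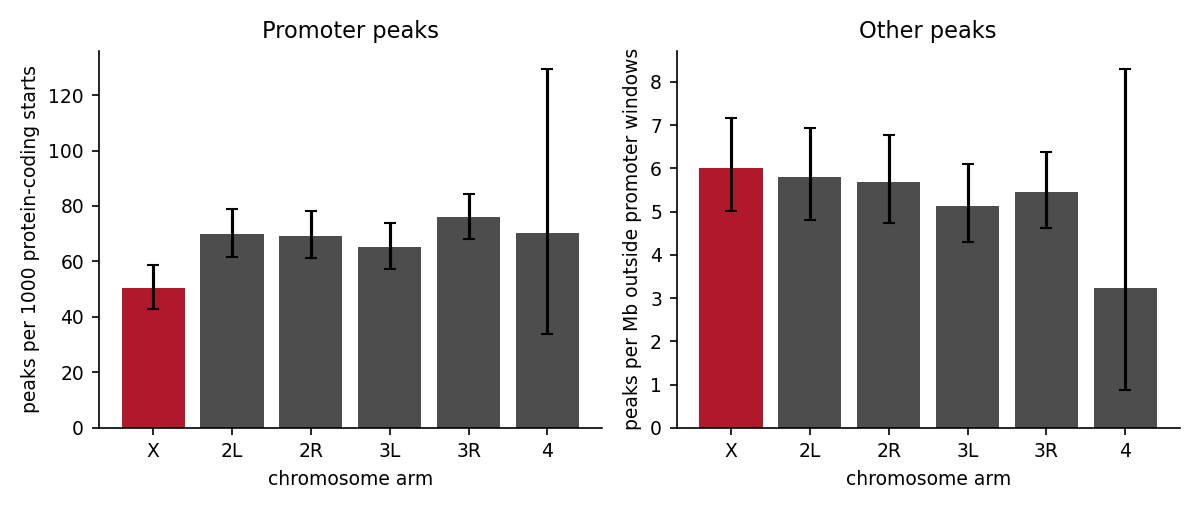
Promoter peaks per 1000 distinct protein-coding starts (left) and other peaks per Mb outside promoter windows (right) for X (red) and the 5 autosomal arms (grey); bars are counts over the denominator and error bars are exact 95% Poisson intervals for counting. X stands at 50.4 on the left, below the 65.2 to 75.9 of the autosomal arms, and at 6.01 on the right, near the larger arms.

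The relaxed pooled list, 30000 peaks before the reproducibility threshold, showed a different balance. There X had 1541 promoter peaks and the autosomes 7899, a ratio per start of 0.952 (0.901 to 1.01), and 3111 against 17449 other peaks, a ratio per Mb of 0.831 (0.799 to 0.863). Of the relaxed promoter peaks 10.7% (9.26% to 12.4%) were reproducible on X and 14.2% (13.5% to 15.02%) on the autosomes, against a share of 13.7% over all arms. The difference was -3.52 percentage points (-5.17 to -1.72). Of the relaxed other peaks 4.05% (3.41% to 4.80%) were reproducible on X and 3.06% (2.82% to 3.33%) on the autosomes, against 3.21% over all arms, a difference of 0.990 (0.299 to 1.78). Promoter regions on X thus entered the relaxed list nearly as often per start as autosomal ones and passed the threshold less often, while other peaks were fewer per Mb on X in the relaxed list and passed more often.

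Along X, promoter peaks numbered 60.1 per 1000 starts from 0 to 5 Mb, 60.4 from 5 to 10 Mb, 35.5 from 10 to 15 Mb, 49.2 from 15 to 20 Mb and 40.1 from 20 to 23.5 Mb. Each of these 5 values lay below those of all 5 autosomal arms, but no interval was taken for the stretches. The values of the first 2 stretches, from 43 and 44 peaks, lay inside the interval of 3L, 57.3 to 74.0. A shortfall in each stretch by itself is therefore not shown. Other peaks ran from 8.37 per Mb between 5 and 10 Mb to 1.51 per Mb in the last stretch, which held 5 of them.

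Among peaks above the threshold, X and the autosomes had similar strength. The signal, which the authors deposited for each peak on the scale of their peak caller, had a median of 160 at X promoter peaks (order-statistic interval 150 to 175) and 164 at autosomal ones (159 to 170), a difference of -4.18 (-15.6 to 11.5). At other peaks it was 175 on X (151 to 186) and 160 on the autosomes (153 to 168), a difference of 15.6 (-10.1 to 28.4). Neither interval excluded 0. The list is the 1949 strongest pooled lines, so both groups were cut at the same signal, near 111. The medians therefore describe only peaks above that floor, which a smaller share of relaxed promoter peaks passed on X. Among the 194 strongest peaks of the series were 20 of 165 X promoter peaks (12.1%, 7.99% to 18.0%) and 120 of 1124 autosomal ones (10.7%, 9.003% to 12.6%). The same held for 10 of 126 X other peaks (7.94%, 4.37% to 14.0%) and 44 of 534 autosomal ones (8.24%, 6.20% to 10.9%).

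**Figure D2:**
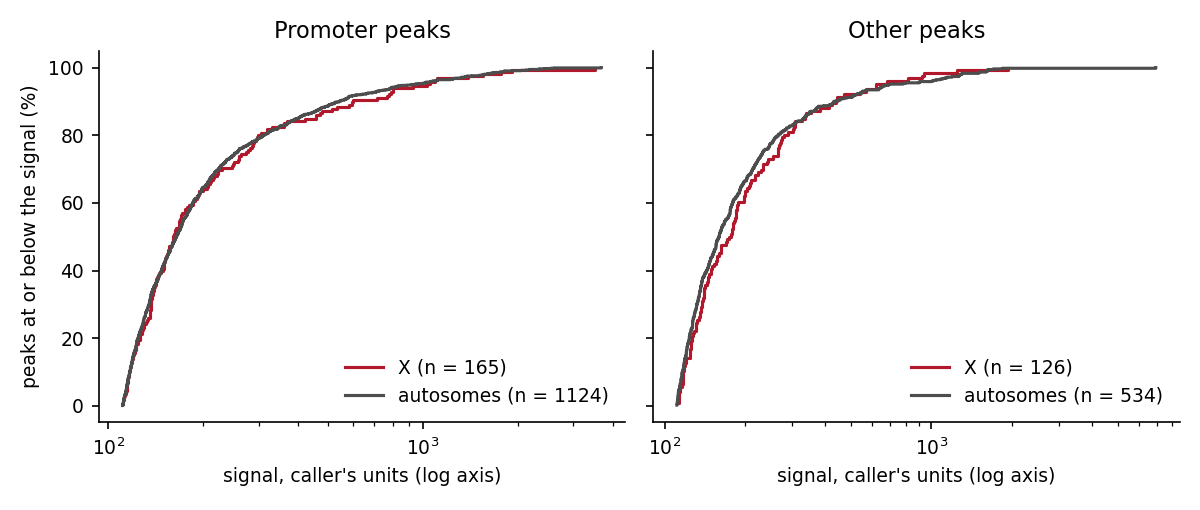
Cumulative share of peaks (percent) against signal in the caller's units on a log axis, for promoter peaks (left) and other peaks (right), with X in red and autosomes in grey. The curves run close together, with medians of 160 on X and 164 on the autosomes at promoter peaks and 175 and 160 at other peaks.

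The 15 X promoter peaks with the highest signal lay at genes of varied function. Top1, the DNA topoisomerase I gene, had 3509 in the pooled list at chrX:15323223-15323887, with 2075 in replicate 3 and 1456 in replicate 4. The summit lay in its first intron, 50 bp upstream of an internal start, and held rank 3 in the whole series and in both replicates. CG1354 had 1909 in the pooled list, with 1113 in replicate 3 and 816 in replicate 4. MTPAP, which encodes the mitochondrial poly(A) polymerase, had 1767 pooled, with 1016 in replicate 3 and 776 in replicate 4, 48 bp upstream of its start. These 3 held the same order in both replicates.

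RpS5a, for a protein of the small ribosomal subunit, had a pooled signal of 1546, with 900 in replicate 3 and 663 in replicate 4, and the summit lay 122 bp downstream of the start. The peak of anox, an acyl-CoA binding protein gene, had 1389 and also lay within 500 bp of a start of SLIRP1, whose product is a mitochondrial RNA-binding protein. LysRS, the lysyl-tRNA synthetase gene, had 1105 and shared its peak with Hecw, a ubiquitin ligase gene. The mitochondrial ribosomal protein gene mRpS30 followed with 1093. Both X genes for subunits of the cytosolic chaperonin were here, CCT6 with 1049 and CCT2 with 930, each with its summit in the first intron.

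The remaining 6 of the 15 strongest promoter peaks ran from 1027 to 766. They lay at CG33177, at Hsp60A, the mitochondrial chaperonin gene, and at Usp16-45, a ubiquitin protease gene. The others were at Tim8, for a mitochondrial import protein, at bbx, which encodes an HMG-box protein, and at Ugalt, the UDP-galactose transporter gene. The Tim8 peak, with 790 pooled, 482 in replicate 3 and 335 in replicate 4, was also within 500 bp of a start of hop, the Janus kinase gene. The replicate lists were called separately, so a higher value in replicate 3 than in replicate 4 is not read as a difference in binding.

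The strongest other peak was in the first intron of Cyp1, a cyclophilin gene, 921 bp downstream of its start. It had 1946 in the pooled list, with 1108 in replicate 3 and 852 in replicate 4, second on X to Top1 alone. Next came an intergenic peak of 1251 at chrX:7678848-7679358 whose nearest start, 15840 bp away, was that of CHES-1-like, a forkhead transcription factor gene. CHES-1-like also carried 6 other peaks in its introns, the strongest of 566, the highest number in any X gene, and Hr4, a nuclear receptor gene, carried 4, the strongest of 234. Among the rest of the 10 strongest were peaks at Gga, a clathrin adaptor gene, with 939, and at mnb, the minibrain kinase gene, with 919. Spt6, for a transcription elongation factor, had 816, and Naa15-16, for a subunit of an N-terminal acetyltransferase, had 682. A peak of 620 lay 4645 bp from the nearest start, that of Paics, a purine synthesis gene. Ran, for the GTPase of nuclear transport, had 618, and a 3′ UTR peak in Neb-cGP had 541.

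At the lower edge of the list on X stood the peak nearest out, with 111.3, and that of goe, with 111.1 at rank 1947. The strongest X peaks left out were one in an intron of CG34417, with 110.9 at rank 1953, and one at RhoGAP19D, with 110.8 at rank 1957.

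X peaks had a partner in the relaxed replicate lists about as often as autosomal ones. With 50% reciprocal overlap, 262 of 291 X peaks (90.0%, 86.1% to 93.0%) and 90.7% of autosomal peaks (89.2% to 92.02%) had a partner in the relaxed list of replicate 3. In replicate 4 it was 251 X peaks (86.3%, 81.8% to 89.7%) and 85.6% of autosomal peaks (83.9% to 87.2%). Over the 245 X peaks matched in both lists, Spearman's rho between the replicate signals was 0.688 and Pearson's r of log2 signal 0.889, against 0.643 and 0.890 over 1397 autosomal peaks. These describe peaks of the same 2 libraries. The list came from the pooled calls of these libraries, and its lines equal the 1949 strongest pooled lines. Strong pooled peaks draw on both libraries, so high match rates were built in for X and autosomes alike. A partner was not required of each peak, and 46 X peaks had none at 50% overlap in 1 or both replicates. The 291 X lines covered 284 distinct intervals: 14 lines shared an interval with another line and differed in summit, such as a pair at mnb and a pair at schlank, and then took the same partner.

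Promoter summits lay at similar distances from starts. The median distance was 75 bp on X (interval 60 to 106) and 67 bp on the autosomes (64 to 75). Upstream of the nearest start lay 60.6% of X promoter summits (53.0% to 67.7%) and 56.6% of autosomal ones (53.7% to 59.5%), and the interval of the difference, -4.12 to 11.7 percentage points, included 0. Other summits had a median distance of 1637 bp on X (1358 to 2274) and 1947 bp on the autosomes (1613 to 2217).

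X differed in where the other peaks fell between starts. Between 1001 and 2000 bp from a start lay 37 of the 126 X peaks (29.4%, 22.1% to 37.8%), against 105 of 534 autosomal ones (19.7%, 16.5% to 23.2%), a difference of 9.70 percentage points (1.62 to 18.7). It was 1 of 5 distance bins compared, and the only one whose interval excluded 0. Beyond 2000 bp lay 42.1% of X peaks and 49.8% of autosomal ones, a difference of -7.75 (-17.0 to 1.95). Intergenic summits made up 17 of 126 on X (13.5%, 8.60% to 20.5%) and 25.1% on the autosomes (21.6% to 28.9%), a difference of -11.6 (-17.8 to -3.73). Introns held 93 on X (73.8%, 65.5% to 80.7%) and 64.4% on the autosomes, a difference of 9.39 (0.201 to 17.4), and in 77.4% of these X cases and 76.5% of the autosomal ones it was a first intron.

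X also has less intergenic sequence: it made up 25.9% of the sequence outside promoter windows on X and 32.6% on the autosomes. Per Mb of that sequence there were 3.14 intergenic peaks on X and 4.21 on the autosomes, a ratio of 0.745 (0.422 to 1.24). Per Mb within transcripts there were 7.02 peaks on X and 6.08 on the autosomes, a ratio of 1.15 (0.925 to 1.43). Neither ratio was outside counting error.

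**Figure D3:**
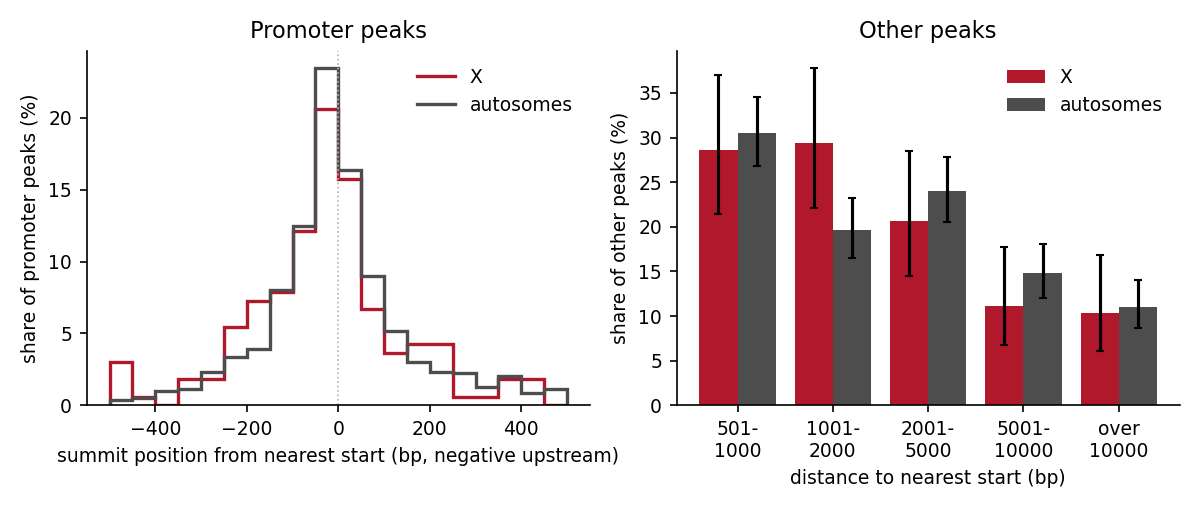
Position of promoter summits relative to the nearest protein-coding start in bp (left, share of promoter peaks in percent per 50 bp) and distance of other summits from the nearest start in bp (right, share of other peaks in percent, with 95% Wilson intervals); X is red and the autosomes grey. Promoter summits gather around the start in both groups, and 29.4% of X other summits lie 1001 to 2000 bp away, against 19.7% on the autosomes.

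The X shortfall was larger at genes with a divergent neighbour than at genes without one. Near starts on both strands lay 36 of the 165 X promoter peaks (21.8%, 16.2% to 28.7%) and 341 of the 1124 autosomal ones (30.3%, 27.7% to 33.1%), a difference of -8.52 percentage points (-14.8 to -1.14). After this was seen, genes were divided by whether another gene had a divergent start within 1000 bp. Such a partner was present for 35.7% of X genes and 36.3% of autosomal genes. With a partner, 99 of 783 X genes (12.6%, 10.5% to 15.2%) and 839 of 4269 autosomal genes (19.7%, 18.5% to 20.9%) had a promoter peak, a difference of -7.01 (-9.48 to -4.24).

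Without a divergent partner, 90 of 1413 X genes (6.37%, 5.21% to 7.77%) and 529 of 7480 autosomal genes (7.07%, 6.51% to 7.67%) had one, a difference of -0.703 (-2.01 to 0.800). The gap between these differences was -6.31 percentage points (-9.20 to -3.25). It was -3.30 (-6.33 to -0.109) from replicate 3 alone and -6.28 from replicate 4 alone. When each peak was given only to its nearest gene it was -3.01 (-5.50 to -0.343), so that a peak counted for both partners made up part of the larger value. On the 4 large autosomal arms the share with a partner was 16.8% to 20.8%, all above X, and without a partner 6.33% to 7.62%, with the 3L value just below that of X.

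**Figure D4:**
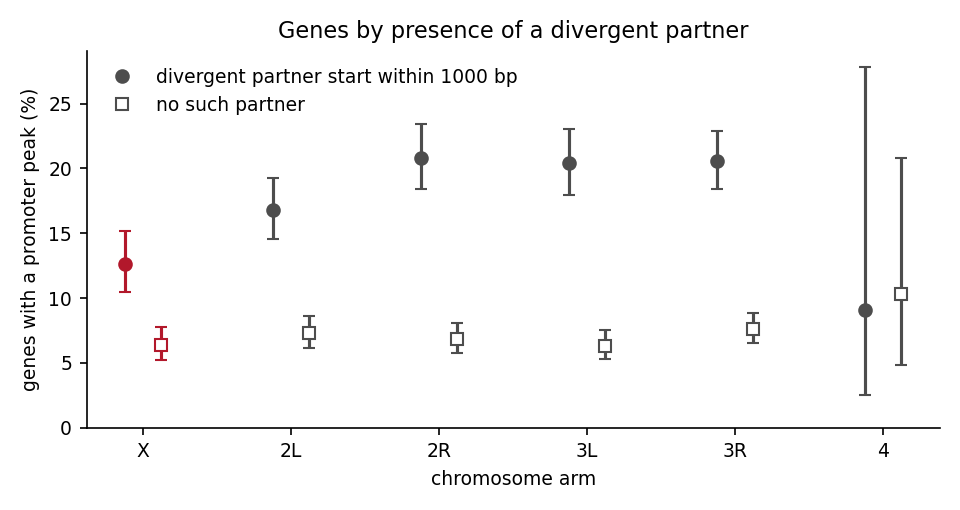
Share of protein-coding genes with a promoter peak (percent) on each chromosome arm, for genes with a divergent partner start within 1000 bp (filled circles) and without (open squares); error bars are 95% Wilson intervals. With a partner X lies at 12.6%, below the 16.8% to 20.8% of the 4 large autosomal arms, while without a partner it lies at 6.37%, within a narrow band; chromosome 4 has few genes.

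AGGTTA stood within 50 bp of the summit, on either strand, at 33 of 165 X promoter peaks (20%, 14.6% to 26.7%) and 14.7% of autosomal ones (12.7% to 16.9%), a difference of 5.32 percentage points (-0.497 to 12.4). At other peaks it stood at 44 of 126 on X (34.9%, 27.2% to 43.6%) and 26.8% on the autosomes (23.2% to 30.7%), a difference of 8.14 (-0.554 to 17.5). Both intervals included 0, although X was above the 4 large autosomal arms in both classes, where the shares were 13.0% to 16.8% and 22.5% to 30.97%. The background was far lower: 2.21% of weak X promoter peaks, 4.36% of weak X other peaks and 1.53% of all 3275 X starts held it. The word was picked from earlier results on these data, so this contrast is a description and not independent support.

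On X the word went with signal, which is likewise a description, since the word was picked from these data. It stood at 49 of the 97 strongest X peaks (50.5%, 40.7% to 60.3%), 18 of the middle 97 (18.6%) and 10 of the weakest 97 (10.3%). The median signal of X promoter peaks was 370 with the word and 152 without. At other X peaks it was 254 with the word and 148 without.

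CACGTG, the E-box known for Mlx, stood at 7 of 165 X promoter peaks (4.24%, 2.07% to 8.50%) and 2.58% of autosomal ones, and at 2 of 126 X other peaks (1.59%, 0.436% to 5.60%) and 2.81% of autosomal ones. Both intervals of the difference included 0. Sequences with it are shown from 3 X genes, all plus strand and with the E-box in capitals, picked after their values were seen: the weaker of 2 promoter peaks of RpL35, a ribosomal protein gene, and the promoter peak of dod, both without AGGTTA within 50 bp of the summit, and an intron of schlank, the ceramide synthase gene, where AGGTTA follows it directly.
RpL35 promoter peak, chrX:5672765-5672794: gttgcgttaagcCACGTGctgaatttctta
dod promoter peak, chrX:21345268-21345297: caccgcagttagCACGTGccagcaccttat
schlank intronic peak, chrX:6266108-6266137: gttgggcgtttcCACGTGaggttatgtttg
The signals of these peaks were 134 at RpL35, 171 at dod and 424 at schlank. The RpL35 peak had 84.3 in replicate 3, at rank 1208, but 22.4 in replicate 4, at rank 11239. The stronger RpL35 promoter peak, with 260, overlapped the weaker peak and had AGGTTA near its summit but not the E-box. CACGTG was at 9 X peaks in all, and 5 of the 9 also held AGGTTA.

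Starts on X held CACGTG more often than autosomal starts did. X genes with it carried a peak less often than autosomal genes with it. It lay within 50 bp of 101 of the 3275 X starts (3.08%, 2.55% to 3.73%) and of 1.56% of autosomal starts (1.38% to 1.76%). Of the 98 X genes with it at a start, 11 had a promoter peak (11.2%, 6.38% to 19.0%), against 65 of 248 autosomal genes (26.2%, 21.1% to 32.0%), a difference of -14.99 percentage points (-22.5 to -5.70). Over all genes the share was 8.61% on X, inside the X interval, and 11.6% on the autosomes, below the autosomal interval. The share of genes with the E-box was 21.4% to 28.6% on the 4 large autosomal arms, and chromosome 4 had 1 such gene. From replicate 3 alone the difference was -15.2 and from replicate 4 alone -12.2. The 11 X genes were RpS5a, inc, RpL35, RpS28b, Mybbp1A, Tsp5D, CG42854, fs(1)N, U2af50, Coq7 and CG11417, named after their values were seen. Of these, RpS5a, RpL35 and RpS28b encode ribosomal proteins. The E-box was counted here near a start and not near a summit. The promoter summits of RpS5a and RpS28b had no CACGTG within 50 bp.

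TATCGATA, the DNA replication-related element of many housekeeping promoters, gave a like result. At summits it stood at 7 of 165 X promoter peaks (4.24%) and 5.16% of autosomal ones, and at 0 of 126 X other peaks, which allows up to 2.96%. Within 100 bp of the summit the X promoter share was 12.7%, with no autosomal share taken at this window. It lay near 5.83% of X starts (5.08% to 6.69%) and 4.20% of autosomal starts (3.90% to 4.52%). Of the 182 X genes with it, 19 had a promoter peak (10.4%, 6.79% to 15.7%), against 144 of 664 autosomal genes (21.7%, 18.7% to 24.98%), a difference of -11.2 percentage points (-16.2 to -5.18). On the 4 large autosomal arms the share was 20.4% to 23.3%. The 8.61% of all X genes lay inside the X interval, and the 11.6% of all autosomal genes below the autosomal one.

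For AGGTTA the order was the other way. Of the 50 X genes with it at a start, 21 had a promoter peak (42.0%, 29.4% to 55.8%), against 88 of 300 autosomal genes (29.3%, 24.5% to 34.7%). The difference of 12.7 percentage points had an interval of -1.06 to 27.3, which included 0. It excluded 0 only from replicate 4 alone, at 18.3 (4.26 to 32.7). From replicate 3 alone the difference was 12.3 (-1.62 to 26.9). Among the 974 strongest peaks it was 11.3 (-0.946 to 25.8), and with each peak given to its nearest gene 11.0 (-2.24 to 25.6). Genes with none of the 4 words had a peak in 7.33% of cases on X (6.23% to 8.60%) and 10.2% on the autosomes (9.64% to 10.8%). This comparison by word was chosen after the peak counts were seen.

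GAGAGAGA, the core of the element that the dosage compensation complex binds, stood at few X summits within 50 bp. It was present at 1 of 165 X promoter summits (0.606%, 0.107% to 3.35%) and 1.07% of autosomal ones, and at 3 of 126 X other summits (2.38%, 0.813% to 6.77%) and 2.25% of autosomal ones. Within 100 bp of the summit the X shares were 1.21% in promoters and 8.73% elsewhere. No autosomal share was taken at this window, so these values show no difference between X and autosomes. It lay near 1.01% of X starts (0.718% to 1.41%) and 0.532% of autosomal starts (0.430% to 0.657%). X as a whole held 227 copies per Mb and the autosomes 118. Of the X copies 0.262% (0.156% to 0.440%) lay within 50 bp of a reproducible summit, and of the autosomal copies 0.393% (0.299% to 0.516%). The 4 words were searched on both strands, and matches of different words may overlap.

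**Figure D5:**
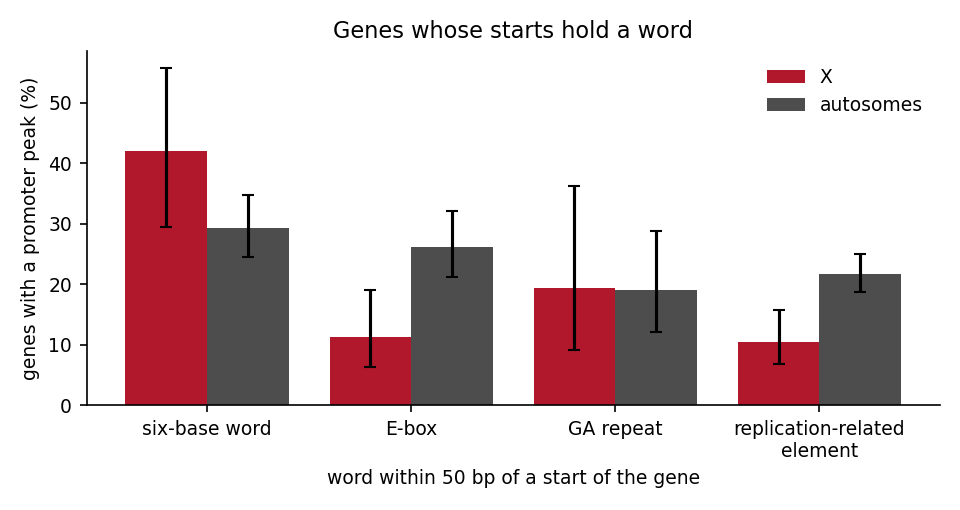
Share of protein-coding genes with a promoter peak (percent) among genes that hold each word within 50 bp of a start, for X (red) and the autosomes (grey), with 95% Wilson intervals; the six-base word is AGGTTA, the E-box CACGTG, the GA repeat GAGAGAGA and the replication-related element TATCGATA. Genes with the E-box have a peak in 11.2% of cases on X and 26.2% on the autosomes, and genes with the six-base word in 42.0% and 29.3%.

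Most genes for cytosolic ribosomal proteins on X had a promoter peak. Of 14 such genes on X 12 had a promoter peak (85.7%, 60.1% to 96.0%), against 56 of 72 on the autosomes (77.8%, 66.9% to 85.8%). Over all genes of any function the share was 8.61% on X, 11.6% on the autosomes and 11.2% on both together, and the counts of the lists below are to be read against these. The median signal was 245 on X and 332 on the autosomes. After RpS5a the strongest were sta, with 600, RpS19a, with 423, and RpS10b, with 332. The sta summit had no partner at 50% overlap in replicate 4. The remaining pair, RpL17 and RpS14a, had relaxed peaks of 108.2 and 96.4 below the threshold. RpS14a lies beside its near-identical copy RpS14b, which had a peak of 114.6, and reads may be shared between them. Genes whose names carry a hyphen, such as RpL37-1 with a peak of 113, were outside the list.

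In the other growth-related lists the X share was below the autosomal one, except for the cytosolic chaperonin. The X counts were small, and in each list the intervals of X and autosomes overlapped. Mitochondrial ribosomal proteins had 1 of 11 on X (9.09%, 1.62% to 37.7%), mRpS30, and 19 of 62 on the autosomes (30.6%, 20.6% to 43.0%). Translation initiation and elongation factors had 2 of 7 on X, eIF5 with 207 and eIF4H1 with 115.4, and 26 of 44 on the autosomes. The respiratory chain and ATP synthase had 3 of 12 on X and 31 of 77 on the autosomes, and the X members were ATPsyndelta with 216, ND-ASHI with 175 and COX6B with 159. Of aminoacyl-tRNA synthetases 1 of 3 on X, LysRS, and 11 of 30 on the autosomes had a peak. Both X genes of the cytosolic chaperonin had one, as did 5 of 6 on the autosomes. Proteasome genes had 0 of 6 on X, which allows a share of up to 39.0% by its Wilson interval, and 1 of 42 on the autosomes.

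Summed over these 7 lists, 21 of 55 X genes (38.2%, 26.5% to 51.4%) and 149 of 333 autosomal genes (44.7%, 39.5% to 50.1%) had a promoter peak, a difference of -6.56 percentage points (-19.4 to 7.65). These lists held 2.50% of X genes and 2.83% of autosomal genes. Over all other genes the shares were 7.85% on X and 10.7% on the autosomes, a difference of -2.83 (-4.04 to -1.50), so the shortfall was also measured away from these lists.

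The X genes of the Max network itself had no reproducible promoter peak. Mnt, which encodes a repressor partner of Max, had 2 peaks in its first intron, of 200 and 170, the stronger of which carried AGGTTA, and its relaxed promoter peak had 68.4. Myc, the growth activator, had a relaxed promoter peak of 30.1. Its start was also the nearest to a reproducible intergenic peak of 117, which lay 15300 bp upstream and carried AGGTTA. On the autosomes 2 of 3 network genes had a promoter peak.

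Genes of dosage compensation on X had relaxed promoter peaks below the threshold. The values were 46.9 at mof, the acetyltransferase gene, 56.7 at roX1 and 29.6 at roX2, which encode the RNAs of the complex. On the autosomes 1 of 6 protein-coding members had a reproducible peak. Of 6 sex determination genes on X 1 had one (16.7%, 3.01% to 56.4%, against 8.61% of all X genes), Sxl, the master switch of female development, with 142. On the autosomes it was 4 of 10 (40%, 16.8% to 68.7%, against 11.6% of all autosomal genes). Relaxed peaks of 35.8 to 41.9 lay at sc, sisA and snf, and none was listed at run and upd1.

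Developmental signalling genes had promoter peaks in 3 of 13 cases on X (23.1%, 8.18% to 50.3%) and 3 of 14 on the autosomes (21.4%, 7.57% to 47.6%), both with intervals that held the 8.61% and 11.6% of all genes there. The X members were hop, through the peak it shares with Tim8, sgg, the GSK3 kinase gene, with 186, and Raf, the kinase gene, with 135. The gene N, which encodes the Notch receptor, had an intronic peak of 136 and no reproducible promoter peak. Chemoreceptor genes, which serve taste and smell, had 0 of 25 on X, which allows up to 13.3% and so does not exclude the 8.61% of all X genes, and 1 of 154 on the autosomes (0.649%, 0.115% to 3.59%). Cuticle protein genes had 0 of 4 on X, too few to set against all X genes, and 0 of 66 on the autosomes, which allows up to 5.50%.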

How the data were processed

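Peaks come from ChIP-seq of 2 libraries of 1 group. The authors, per the deposited file notes, mapped reads to dm6, called relaxed peaks per replicate and on the pooled replicates against a control alignment, and thresholded the pooled calls by irreproducible discovery rate (IDR); the caller is not given in the sources used here. The deposited signal and −log10 q-value per peak are the authors' values; the −log10 q-value is constant in the reproducible list, whose lines equal the 1949 strongest pooled lines, so signal was used. Depth is unknown.

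Summits were set against Ensembl release 115 gene models (FlyBase 6.54) and Release 6 sequence with Python 3.11.15, pandas 2.3.3 and SciPy 1.17.1. Divergent partners were starts within 1000 bp on the opposite strand. A peak's replicate value is that of its strongest partner with 50% reciprocal overlap. Shares carry 95% Wilson intervals, differences Newcombe intervals, ratios exact conditional binomial intervals and medians order-statistic intervals; no p-value was computed. Functions were tested on simulated data. The X peaks were taken by their place on X alone, while the words and 13 gene lists were chosen with earlier results of these data known. AGGTTA was picked from those results, and the other words are known elements. Genes named are those at the 15 strongest promoter and 10 strongest other X peaks, all X members of the Max network, dosage compensation and sex determination lists, up to 4 X members with the strongest promoter peak of each other list, and the threshold neighbours; exceptions are marked.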

Additional observations from a re-analysis of the deposited data

How the results depend on the processing

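The ratio of promoter peaks per start, X over autosomes, stayed below 1 with its interval in all 11 alternatives (0.691 to 0.785; 0.731 without replicate 3 and 0.759 without replicate 4); counts per gene and per Mb of promoter windows, 0.785 and 0.721, were chosen after seeing the data. The ratio for other peaks was 0.997 to 1.21, with 1 inside every interval. The difference in promoter share was -14.1 to -8.21 and that in genes with a peak -3.05 to -1.84 percentage points. The difference in median promoter signal was 26.4 among the 974 strongest peaks, with 0 inside the interval; the cause was not tested. With 1 shared base, 99.7% of X peaks had a partner in replicate 3 and 100% in replicate 4, and with 75% reciprocal overlap 82.8% and 72.5%, as a looser or stricter rule must give. At 100 bp either side of the summit GAGAGAGA stood at 8.73% of X other peaks and TATCGATA at 12.7% of X promoter peaks. Autosomal shares were not taken at this window. Leaving out a replicate means taking the 1949 strongest peaks of the other. No paired analysis was possible because there is 1 group. Unknown depth limits any statement about X peaks absent from the list.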
